A study of Homo sapiens with 18 samples.

Results

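The stretches described here are the segments of the human genome that lay inside a peak of the linker histone H1.2 by both xChIP-seq and xxChIP-seq and outside every peak of H1.5 by either protocol. They were chosen by peak position alone, base by base, from the 4 deposited peak lists, as the bases shared by the xChIP H1.2 and xxChIP H1.2 lists minus all bases of the xChIP H1.5 and xxChIP H1.5 lists on chromosomes 1 to 22 and X, and stretches of 500 bp or more were kept. This left 29000 segments, 4.71% of the 615153 stretches of that length over all 15 combinations of the lists. The cells were undifferentiated HL-60/S4 cells, an established human myeloid leukemia line, with no treatment or genetic change that separated the groups. There were 18 samples, of which 12 were immunoprecipitated (3 replicates for each pair of protocol and antibody) and 6 were Input. In xChIP the fixed chromatin was sonicated before the antibody was added, whereas in xxChIP the antibody was given to fixed and permeabilized cells, which were washed and fixed again before sonication. Both antibodies were rabbit polyclonal sera against the N-terminal part of the histone, so every list rests on 1 serum, and all groups came from a single cell line.

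Linker histones bind outside the nucleosome core, where DNA enters and leaves it, and hold the linker DNA between neighbouring nucleosomes. Their long basic tails help to fold chains of nucleosomes into more compact chromatin. H1.2 and H1.5 are replication-dependent isotypes that share a globular domain of very similar sequence and differ mainly in their tails, and in many cell types H1 is sparse over the starts of active genes.

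Each list is a merge of 3 replicates that gives positions only. Heights, read numbers and the spread between replicates could therefore not be computed, no difference below was tested, and intervals cover counting error only. Agreement among the 23 chromosomes is given as a count and is not a replicate check.

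Sequence from the centres of 2 segments is shown as examples. Coordinates are those of hg19 (GRCh37), and each sequence is the plus strand of the reference. The windows of 300 bp come from the segments of 1000 bp or more with the highest GC content and with the GC content nearest to the median.
Highest GC content, chr7:45852858-45853157: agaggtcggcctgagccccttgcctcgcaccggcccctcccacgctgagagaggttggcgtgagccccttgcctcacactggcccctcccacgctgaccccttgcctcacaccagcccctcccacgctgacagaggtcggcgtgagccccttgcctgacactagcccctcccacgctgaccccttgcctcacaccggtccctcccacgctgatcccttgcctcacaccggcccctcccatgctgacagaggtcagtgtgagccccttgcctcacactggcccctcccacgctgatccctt
Nearest to the median GC content, chr6:7333612-7333911: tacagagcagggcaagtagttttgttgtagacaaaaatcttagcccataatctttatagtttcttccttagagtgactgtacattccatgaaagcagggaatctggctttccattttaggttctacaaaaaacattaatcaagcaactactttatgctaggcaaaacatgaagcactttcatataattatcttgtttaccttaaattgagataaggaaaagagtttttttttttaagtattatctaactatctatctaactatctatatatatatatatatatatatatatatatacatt
The central window shown of the most GC-rich segment (68.2% GC over the segment) repeats a short unit, as read by eye, and overlapped a long non-coding RNA gene. The segment nearest to the median had a GC content of 43.0% over its 1045 bp, but its central window shown is AT-rich, at 27.7%. That window overlapped the genes CAGE1 and SSR1 outside their exons.

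The segments were what remained of a modest overlap of the protocols. The H1.2 peaks of xChIP covered 26.4% of the 2836 Mb of known sequence and those of xxChIP covered 20.2%. They shared 124 Mb, which was 16.6% of the xChIP bases and 21.8% of the xxChIP bases. The product of both coverages would give 151 Mb, so the bases shared were 0.826 times that product, and the ratio was below 1 on all 23 chromosomes. For H1.5 the same ratio was 1.13. Within 1 protocol the isotypes shared more: stretches covered by xChIP H1.2 and xChIP H1.5 alone summed to 183 Mb and those covered by xxChIP H1.2 and xxChIP H1.5 alone to 172 Mb, against 47.8 Mb for H1.2 in both protocols alone.

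Removal of H1.5 took away most of the overlap. Without the bases of xChIP H1.5, 63.2% of the shared H1.2 bases were left, without those of xxChIP H1.5 58.5%, and without either list 38.4%. The length limit reduced 47.8 Mb to 45.0 Mb, which was 1.59% of known sequence. The converse set, H1.5 in both protocols without H1.2, kept 21.2% of its overlap and held 11972 segments in 17.5 Mb, and the stretches covered by all 4 lists numbered 11717 in 20.2 Mb. H1.2 alone in both protocols was thus the largest of these 3 sets, in number and in bases. The lists differed in size, however. H1.5 peaks covered 16.3% (xChIP) and 17.2% (xxChIP) of known sequence, against 26.4% and 20.2% for H1.2 peaks. Set sizes and the shares kept depend on these coverages, and the part of list size was not tested. The share of the H1.2 overlap that was free of H1.5 ranged from 31.9% on chromosome 7 to 54.3% on chromosome 16 and 53.4% on chromosome 17. The cover by the removed lists also differed. On chromosome 7 xChIP H1.5 covered 20.0% and xxChIP H1.5 20.4%, on chromosome 16 7.69% and 11.4%, and on chromosome 17 11.2% and 11.8%.

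Most segments were about as long as several nucleosomes with their linkers. The mean length was 1551 bp and the quartiles were 1032, 1319 and 1783 bp. Segments of 1000 to 2000 bp made up 59.6% of the number and 53.0% of the bases, whereas 304 segments reached 5000 to 10000 bp and 17 reached 10000 bp or more. Near the limit the number of stretches did not drop sharply: 250 were 500 to under 520 bp long and 271 were 480 to under 500 bp long, and 16840 stretches in all were below the limit.

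The segments were spread over every chromosome with uneven density. They took from 0.727% of known sequence on chromosome X to 2.21% on chromosome 22, and 1.17% on chromosome 16, where the H1.5 counterpart (0.255%) and the stretches in all 4 lists (0.231%) were also sparse. In windows of 1 Mb the median share was 1.40%, and 10 of 2846 windows had no segment.

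**Figure D1:**
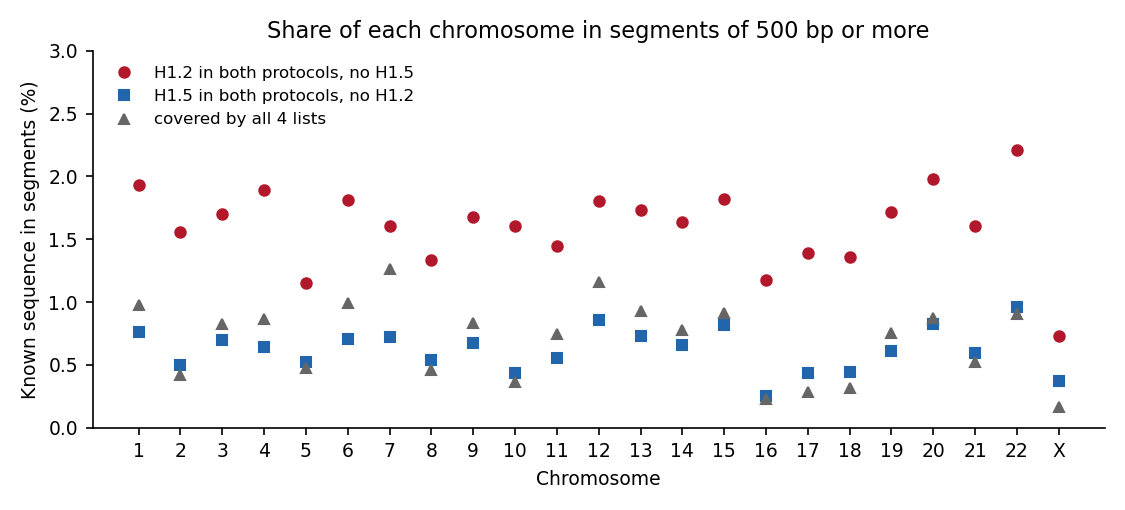
Share of known sequence (%) on each chromosome that lay in segments of 500 bp or more. Circles are H1.2 in both protocols without H1.5, squares H1.5 in both without H1.2, and triangles stretches covered by all 4 lists; the circles run from 0.727% (X) to 2.21% (22) and lie above the other symbols on every chromosome.

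The peaks around the segments were longer than those of the whole lists, more so for xChIP than for xxChIP. A segment was held by 25565 of the 142645 xChIP H1.2 peaks (17.9%) and by 27544 of the 142997 xxChIP H1.2 peaks (19.3%). The median xChIP peak around a segment was 3692 bp long, against 2334 bp for the whole list, and the median xxChIP peak 2373 bp, against 2168 bp. Peaks of 20 kb or more held 19.2% of segments in xChIP and 5.39% in xxChIP, but were 4.07% and 2.04% of the peaks. In the values over segments a peak counts once for each segment it holds, which gives long peaks more weight. The part of peak length in this was not tested.

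The peaks overlapped in 4 ways. In 8147 segments (28.1%) a whole xxChIP peak lay inside an xChIP peak, in 3847 (13.3%) a whole xChIP peak lay inside an xxChIP peak, in 7313 (25.2%) the peaks were staggered, and in 9693 (33.4%) at least 1 end was set by an H1.5 peak. The arrangement went with other features of the segment. Segments made of a whole xxChIP peak had a GC content of 44.3% and had 54.4% of their bases in protein-coding genes, whereas those made of a whole xChIP peak had 41.5% and 42.2%. Values for staggered peaks were 43.3% and 47.8%, and for segments bounded by H1.5 41.7% and 44.2%.

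The nearest H1.5 peak was usually close. Its median distance was 1692 bp, 9694 segments (33.4%) touched one, and 2088 (7.20%) were 10 kb or more from any H1.5 peak. For the H1.5 counterpart the nearest H1.2 peak was at a median of 878 bp, 39.4% touched one and 4.44% were 10 kb or more away, so the segments lay farther from peaks of the other isotype. These distances depend on the number and coverage of the peaks removed, and no distance for other sequence was computed.

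Sequence close to the starts of protein-coding genes was scarce in the segments. A promoter, taken as 1000 bp on either side of the outermost annotated start, overlapped a segment in 304 of 20048 cases (1.52%, Wilson 95% interval 1.36 to 1.70%). The start itself lay in a segment for 58 genes (0.289%). Promoter bases made up 0.342% of the segments and 1.30% of known sequence, a ratio of 0.263, and the ratio was below 1 on 23 of 23 chromosomes (0.0618 to 0.413). It rose to 0.605 with promoters of 2500 bp on either side and to 0.701 with the starts of all annotated genes. At 1 to 5 kb from a protein-coding start lay 5.61% of segment centres and 4.84% of known sequence, so centres were not scarce in that distance class as a whole. The ratio was near that of xxChIP rather than xChIP H1.2. It was 0.266 for stretches covered by xxChIP H1.2 alone. For those covered by xChIP H1.2 alone it was 2.15, and these exceeded the segments on all 23 chromosomes. For the whole lists it was 0.221 (xxChIP H1.2) and 1.40 (xChIP H1.2). Every segment lies inside a peak of both lists by the rule, so its ratio is not independent of theirs. The ratio was 0.244 for stretches with H1.5 in both protocols, and the segments were higher on 10 of 23 chromosomes. It was 0.239 for stretches in all 4 lists, but there chromosome 4 stood at 2.87, the median chromosome was at 0.0367 against 0.225 for the segments, and the segments were higher on 20 of 23. Coding exons (ratio 0.485) and untranslated or non-coding exons (0.627) were also below 1.

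The segments and the H1.5 counterpart parted in introns and in sequence outside protein-coding genes. Introns held 45.6% of segment bases and 41.6% of known sequence, a ratio of 1.10 that was above 1 on 19 of 23 chromosomes (0.965 to 1.198). The ratio was 0.852 for H1.5 in both protocols, 0.673 for all 4 lists and 0.914 for xxChIP H1.2 alone. The whole xxChIP H1.2 list stood at 0.864, near the H1.5 counterpart, and the whole xChIP H1.2 list at 1.07. The segments exceeded the H1.5 counterpart and the stretches in all 4 lists on 23 of 23 chromosomes and xxChIP H1.2 alone on 22. Here they were close to xChIP H1.2 alone (1.14), which was the higher on 17 chromosomes. Other genes outside protein-coding genes had a ratio of 0.913 in the segments and 1.16 for H1.5 in both. Sequence outside all annotated genes was near its genomic share (0.994), against 1.17 for H1.5 in both and 1.44 for all 4 lists. In these 2 classes the whole xxChIP H1.2 list had ratios of 1.16 and 1.17, so the contrast with H1.5 in both did not extend to that list. A segment centre lay a median of 54.5 kb from the nearest protein-coding start, while the median was 85.0 kb for known sequence, 118 kb for H1.5 in both and 44.9 kb for xChIP H1.2 alone.

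**Figure D2:**
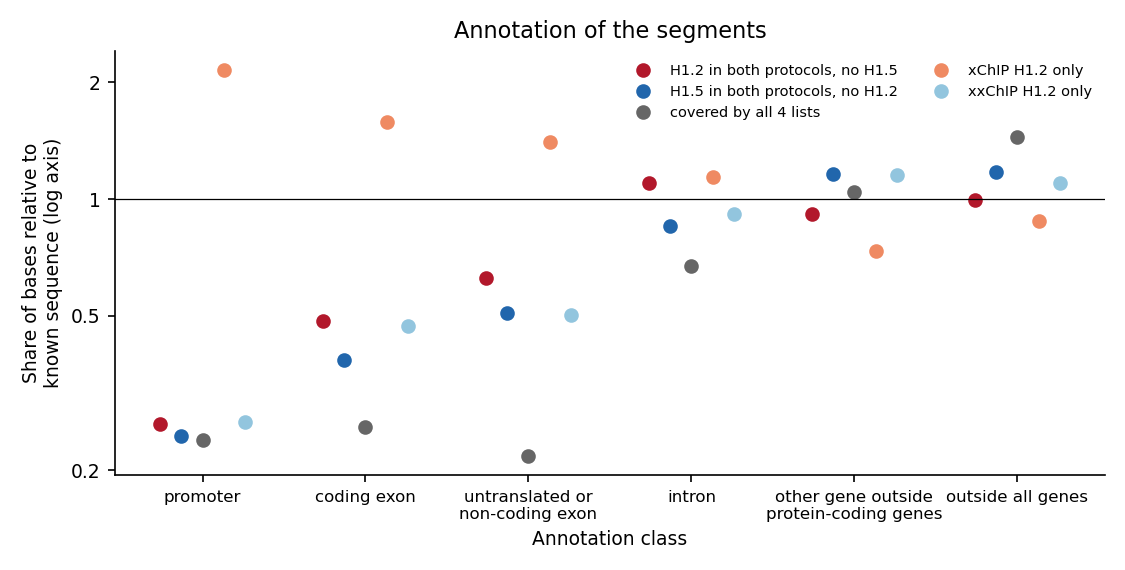
Share of bases in 6 annotation classes relative to known sequence (log axis; the line marks a ratio of 1). Colours are the 5 sets of stretches; the segments lie at 0.263 for promoters, beside xxChIP H1.2 alone (0.266), and at 1.10 for introns, beside xChIP H1.2 alone (1.14).

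Bodies of 6989 of 20098 protein-coding genes overlapped a segment (34.8%). For H1.5 in both protocols the count was 2810 (14%), and promoters numbered 80 (0.399%). For all 4 lists the counts were 2788 bodies (13.9%) and 65 promoters (0.324%). These sets cover fewer bases, so the counts are not comparable as densities. As a density, segments took 0.730% of the bodies of genes under 10 kb, 2.12% for genes of 50 to 100 kb and 1.11% for genes of 500 kb or more. The H1.5 counterpart instead rose with every class of gene length, from 0.189% to 0.664%.

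**Figure D3:**
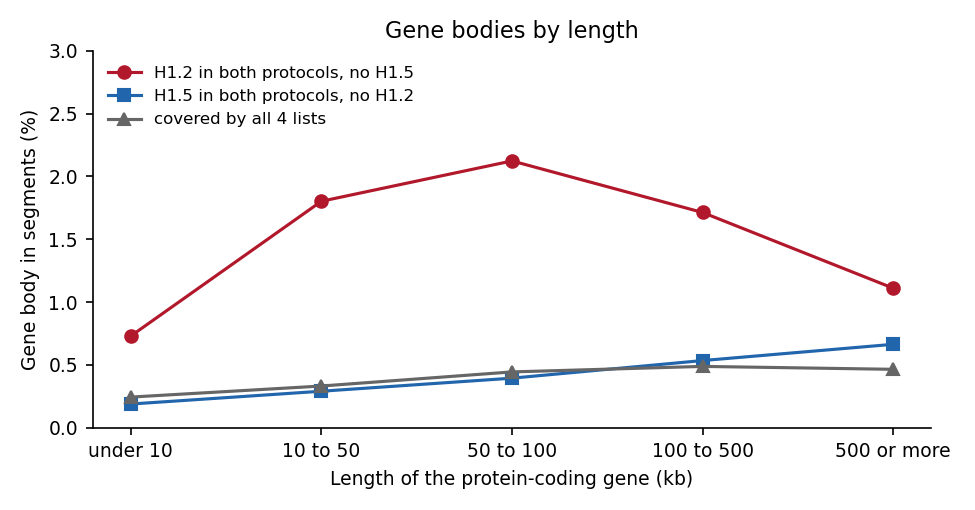
Share of protein-coding gene bodies (%) in the segments by gene length (kb). Circles are H1.2 in both protocols without H1.5, with a maximum of 2.12% at 50 to 100 kb; squares (H1.5 in both) climb to 0.664% in the longest genes, and triangles are stretches in all 4 lists.

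Of the 3660 protein-coding genes of 100 kb or more, 2987 held a segment, and the median share of the body was 1.27% (90th percentile 4.02%). The 10 with the largest share had a wide range of functions. NCOA6, a coactivator of nuclear receptors on chromosome 20, had 5 segments over 15.4% of its 137 kb. LIN54, the DNA-binding subunit of the complexes that control cell cycle genes, had 6 over 15.0%. TMC2, a component of the mechanotransduction channel of hair cells, had 5 over 14.9%, and ABCG2, a drug efflux transporter, had 6 over 14.8%. Then came ACACB, an acetyl-CoA carboxylase (12.4%), TESK2, a protein kinase (12.2%), the readthrough gene model ENSG00000288208 that overlaps TESK2 (11.6%), ENSG00000283761 (11.0%), PTPRA, a receptor tyrosine phosphatase (10.6%), and RUFY3, an adaptor of intracellular transport (10.3%). All 10 bodies were covered more by xChIP than by xxChIP H1.2: in ABCG2 84.1% lay in xChIP H1.2 peaks and 26.0% in xxChIP H1.2 peaks, and in NCOA6 61.0% and 21.2%. The xChIP H1.2 list also covered more of all known sequence (26.4% against 20.2%) and had the higher intron ratio (1.07 against 0.864). The count was not made for other long genes, so this direction is not particular to the 10.

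Promoters that lay wholly inside a segment were 6 in number, those of ACAT1, AQP8, HERC6, PTP4A1, SLC22A6 and ZNF208. They were followed by VEPH1 (96.7%), NBPF15 (92.2%), ALLC (90.4%) and MSH6 (90.2%). SLC22A6, the renal organic anion transporter, AQP8, a water channel of digestive epithelia, and ALLC, the allantoicase gene, are genes of other tissues, whereas ACAT1, a mitochondrial thiolase, and MSH6, a mismatch repair protein, are widely expressed. For some of the 10 the outermost start was far from the canonical one. The canonical start of MSH6 was 87.6 kb away, that of PTP4A1, a phosphatase, 50.7 kb and that of VEPH1 30.2 kb, and no base of these 3 canonical promoters was in a segment. The canonical start of ACAT1 was 4.87 kb away and 27.5% of that promoter was covered, and for AQP8 the values were 1.22 kb and 40.3%. HERC6, an interferon-induced ubiquitin ligase, SLC22A6 and ZNF208, a zinc finger protein, kept 100% with the canonical start, and NBPF15 (92.5%) and ALLC (90.4%) changed little.

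Gene groups of interest in this cell type were read against the whole annotation, in which 1.66% of body bases lay in segments. Over all protein-coding genes 34.8% of bodies and 1.52% of promoters overlapped a segment, and 2.83% of bodies under 10 kb did. Among the 10 linker histone H1 genes no body overlapped a segment. Their bodies sum to only 17.9 kb, so the absence of an overlap says little. The only promoter of this list to overlap a segment was that of H1-6, the testis-specific H1t, by 63 bp. Core histone genes had 4 of 58 bodies, H4C16, H4C14, H2AC6 and H2BC4, and 2.90% of body bases. Genes of 14 lists were examined, with no allowance for gene length, and the median share of the body in segments was 0% in 13 of them, as it was over all protein-coding genes.

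Myeloid genes are read against the 34.8% of all bodies that overlapped a segment, and against the 2.83% of genes under 10 kb, since granule genes are short. Of 11 azurophil granule genes only BPI, a bactericidal protein, had one (3.11% of its body), and of 12 myeloid transcription factor genes only RUNX1, with 14 segments over 1.29% of its 1217 kb, and both lists had 1.17% of body bases in segments. Leukocyte integrins had 3 of 6 bodies and 2.99% of body bases: ITGAM, the CD11b subunit, with 4 segments over 8.92%, ITGB2 (3.89%) and ITGAL (2.10%). No promoter of these 3 lists was overlapped, but only 1.52% of all promoters were, so in lists this short the absence says little. Lamin and nuclear envelope genes had 4 of 12 bodies and 2.67% of body bases, with SYNE2, which links the nucleus to the cytoskeleton, at 14 segments over 5.94%, LMNB1 at 1.81%, SYNE1 at 1.58% and LMNA at 1.42%.

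Larger gene families showed no common level. Their counts are read against the 34.8% of all bodies and the 1.52% of all promoters that overlapped a segment. For genes under 10 kb the share of bodies was 2.83%, and gene length was not allowed for. Zinc finger genes, many of them in clusters on chromosome 19, had 163 of 508 bodies (32.1%), 12 promoters (2.36%) and 1.95% of body bases, led by ZNF510 (29.9%), ZNF879 (20.7%), ZNF181 (20.6%) and ZNF845 (20.3%). Olfactory receptor genes had 16 of 399 bodies, 8 promoters (2.01%) and 1.01% of body bases, led by OR7D2 (25.2%). Keratin and keratin-associated protein genes had 11 of 149 bodies, 6 promoters (4.03%) and 1.73% of body bases, with 70.7% of the KRT74 promoter covered. HOX genes had 3 of 39, HOXD11 (14.2%), HOXC4 (3.58%) and HOXB3 (2.55%), and 0.906% of body bases. Clustered protocadherins had 20 of 48 bodies and 1.26% of body bases, but their gene models overlap, and several share the same 3 segments. Globin genes had 2 of 10 and 0.481% of body bases, both from 1 segment inside the long overlapping models of HBE1 and HBG2. Cytosolic ribosomal protein genes, which are highly transcribed, had 8 of 80 and 1.65% of body bases, led by RPS29 (9.99%) and RPS3 (9.45%).

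Many of the longest segments lay near centromeres. The longest, chr21:11104877-11147507, measured 42631 bp and lay 40.6 kb from the centromere gap. Of the 10 longest, 7 were within 2 Mb of a centromere gap, and these included chr21:10819741-10856692, chr12:38338496-38368952, chr12:38318311-38337017, chr12:38371095-38383250, chrX:61692829-61717326 and chr2:91791170-91806230. The others were chr3:193945325-193960791 in LINC02036, chr10:80305138-80317577 in LINC00595, and chr14:35954315-35966365. None overlapped a protein-coding gene. The share within 2 Mb of a gap was 2.26% for segments of 1000 to 2000 bp, 6.58% at 5000 to 10000 bp and 47.1% (8 of 17) at 10000 bp or more. It also rose with length in the other sets, to 33.3% (1 of 3) for H1.5 in both and 76.0% (73 of 96) for all 4 lists at 10000 bp or more. For all segment bases the share was 1.13 times that of known sequence, whereas it was 6.43 times for stretches covered by all 4 lists. Subtelomeric ends of 2 Mb were near their genomic share in the segments (1.06) and above it for xChIP H1.2 alone (1.84).

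Of the 5 windows of 1 Mb with the largest share, chr12:38000001-39000000 near the centromere had 8.70% in 9 long segments, and 22.7% in all 4 lists. The other 4 lay in gene-bearing sequence: chr12:109000001-110000000 with 30 segments (6.48%; ACACB, MYO1H), chr20:33000001-34000000 with 21 (6.00%; NCOA6, PROCR), chr6:17000001-18000000 with 38 (5.93%; KIF13A, NUP153) and chr14:50000001-51000000 with 35 (5.64%; SOS2, RPS29). In these 4 windows xChIP H1.2 covered from 55.2% to 64.2% of known sequence and xxChIP H1.2 from 12.3% to 18.4%. Over all known sequence the values were 26.4% and 20.2%.

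The segments were GC-richer than the H1.5 counterpart. Pooled bases had a GC content of 42.8%, against 40.9% in known sequence, 39.0% for H1.5 in both protocols, 39.4% for all 4 lists, 45.5% for xChIP H1.2 alone and 38.6% for xxChIP H1.2 alone. The excess over H1.5 in both was 3.86 percentage points and was present on 23 of 23 chromosomes (2.52 to 4.93). The segments thus lay between the values of both protocols for H1.2. Single segments averaged 43.0% ± 5.14 (SD, n = 29000), and 5% of them were below 34.9% and 5% above 51.4%. CpG was 11.7 per kb, against 9.87 in known sequence and 7.84 for H1.5 in both. Only 64 segments (0.221%) had a GC content of 50% or more with a ratio of observed to expected CpG of 0.6 or more, the usual signs of a CpG island.

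Part of this difference lay in the surroundings and part in the segment itself. GC content 1000 to 3000 bp away averaged 41.7% for the segments and 39.6% for H1.5 in both. The segments exceeded their own flanks by 1.29 points (SD 5.06, n = 29000), and 17774 of them (61.3%) were above, whereas the H1.5 counterpart was 0.394 points below its flanks. GC content was not highest in the middle: it was 41.6% at the centre, 43.6% at 500 bp and 41.4% at 1000 bp. The dip at the centre and the shoulders at 500 bp were also present for H1.5 in both (38.3%, 39.7%, then 39.2%) and all 4 lists (39.0%, 40.6%, then 39.1%).

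When the 1-Mb windows were put in 5 groups of nearly equal number by GC content, the share in segments rose from 0.960% in the most AT-rich to 2.08% in the most GC-rich. The H1.5 counterpart fell from 0.849% to 0.410%, and xChIP H1.2 and xxChIP H1.2 moved apart, from 12.9% to 45.6% and from 29.2% to 12.0%. Over the 2846 windows the share in segments had a Pearson r of 0.581 with that of xChIP H1.2, -0.172 with that of xxChIP H1.2 and 0.371 with GC content. Neighbouring windows and the lists themselves are shared in these values, which are descriptions only.

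**Figure D4:**
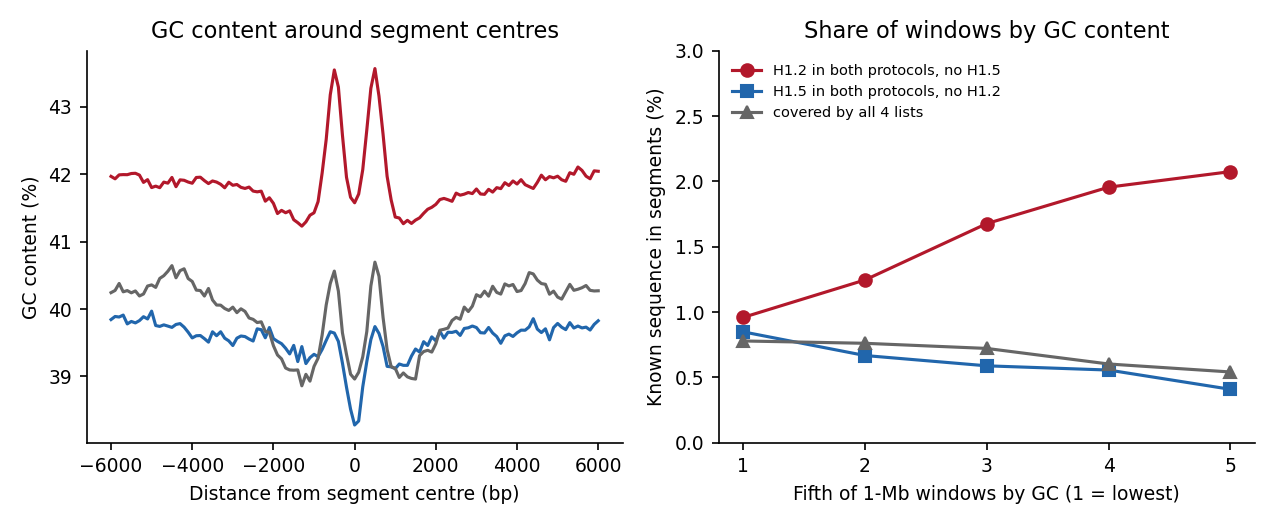
Left, GC content (%) against distance from the segment centre (bp); the segments (red) show 41.6% at the centre and 43.6% at 500 bp, above H1.5 in both (blue) and all 4 lists (grey) throughout. Right, share of known sequence (%) in each set in 5 groups of 1-Mb windows from low to high GC content; the segments rise from 0.960% to 2.08% while H1.5 in both falls to 0.410%.

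Short sequence words also differed between the sets. Among the 2080 words of 6 letters, counted with their reverse complements, CACGCC had the largest excess over known sequence (1.15 on the log2 scale), followed by CGAGAC (1.14) and ACGCCT (1.08). CACGCC was also high for xChIP H1.2 alone (1.00) and low for xxChIP H1.2 alone (-0.49) and H1.5 in both (-0.25). The 20 highest and the 20 lowest words all contained CpG, and the lowest, CCGCGG, was at -1.52. Runs of A or T of 15 bp or more, numbered 288 per Mb, against 145 in known sequence, 148 for H1.5 in both and 142 for all 4 lists.

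The 10 most frequent 12-letter words of the known genome that use all 4 bases, read on both strands, were then counted. These words are CCTGTAATCCCA, CTGGGATTACAG, GCTGGGATTACA, GCCTCAGCCTCC, GCCTGTAATCCC, ACTTTGGGAGGC, GAGGCTGAGGCA, CACTTTGGGAGG, AGCACTTTGGGA and CCTCAGCCTCCC, several of which overlap each other. They are typical of Alu elements, short interspersed repeats that are abundant in gene-rich DNA of primates, although no repeat annotation was used here. The words were 2.71 times as dense in the segments as in known sequence, at 5588 against 2059 matches per Mb. At least 1 match was found in 20985 segments (72.4%). The ratio was above 1 on 23 of 23 chromosomes (1.90 to 3.10). It was 0.919 for H1.5 in both protocols, where 36.8% of segments held a match, 1.14 for all 4 lists, 2.06 for xChIP H1.2 alone and 0.766 for xxChIP H1.2 alone. Over pooled bases the segments were thus denser in these words than stretches covered by either H1.2 list alone. By segment length the density was 5608 per Mb below 1000 bp, 6359 at 1000 to 2000 bp and 4579 at 2000 to 5000 bp. It was 3881 at 5000 to 10000 bp and 2793 in the 17 segments of 10000 bp or more. The segments were shorter (median 1319 bp) than stretches of xChIP H1.2 alone (2009 bp) and xxChIP H1.2 alone (1942 bp). The part of length in the ranking was not tested. The segment with the highest GC content held no match, and that nearest to the median held 17, none of them in the central window shown. Segments made of a whole xxChIP peak within an xChIP peak were densest, at 7765 per Mb with a match in 89.2%, and those made of a whole xChIP peak were at 4004 per Mb (58.7%).

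The words were concentrated at the ends. Around segment centres the density was 3843 per Mb at the centre, 6327 at 400 bp and 2611 at 2000 bp. Where the end was set by an xxChIP H1.2 peak, the first 300 bp inside held 10921 matches per Mb, against 4598 in the 300 bp outside and 3175 at 1000 to 2000 bp outside. Where it was set by an xChIP H1.2 peak the corresponding values were 8055, 1715 and 1346. Where an H1.5 peak set the end the order turned, with 3628 inside and 7447 outside, that is, inside the removed H1.5 peak.

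The ends of all peaks in the deposited lists showed the same step. The first 300 bp inside held 7325 matches per Mb in the xChIP H1.2 list, 6664 in xxChIP H1.2, 6480 in xxChIP H1.5 and 3799 in xChIP H1.5, and the 300 bp outside held 1306, 2209, 2046 and 2225. A higher density inside than outside the ends was therefore common to all 4 lists. At 300 to 600 bp inside, the segments held 4720 matches per Mb from an xxChIP H1.2 end and 2942 from an xChIP H1.2 end. All peaks of these lists held 2357 and 2885 there, and those of xChIP H1.5 and xxChIP H1.5 held 2751 and 2092, so every list was above the 2059 of known sequence, and segments at xChIP H1.2 ends were close to that list as a whole. The authors kept uniquely mappable reads only, and the part of mappability in where peaks end was not tested.

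**Figure D5:**
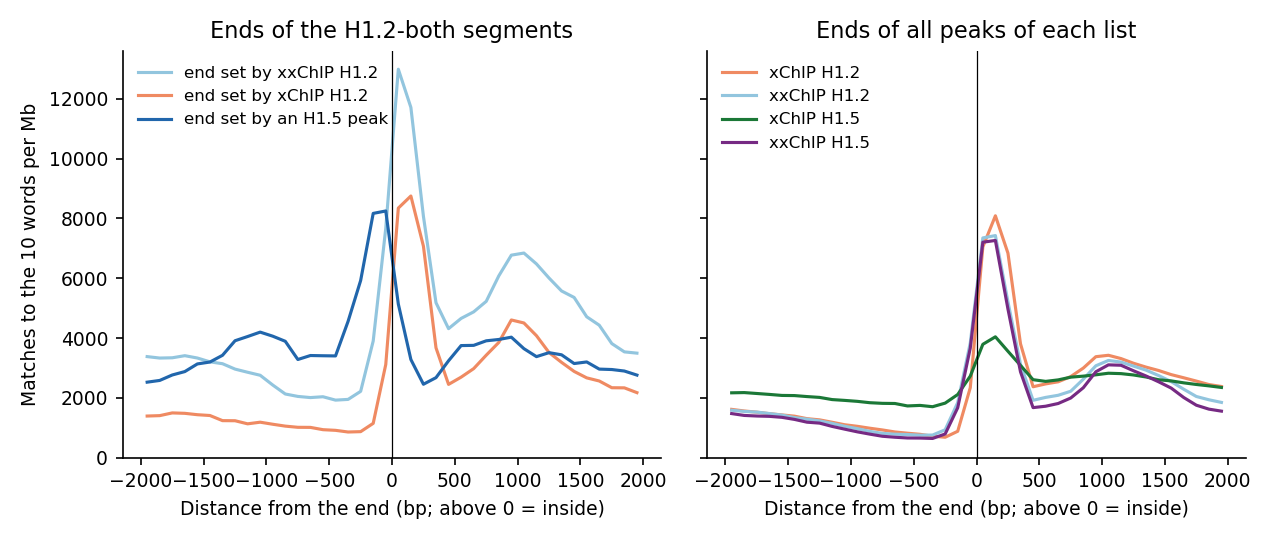
Matches to the 10 words per Mb in bins of 100 bp against distance from an end (bp; above 0 is inside). Left, ends of the segments by the list that set them; values peak just inside ends set by either H1.2 list and just outside ends set by an H1.5 peak. Right, ends of all peaks of the 4 lists, which also peak just inside, with xChIP H1.5 lowest.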

How the data were processed

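H1.2 and H1.5 were mapped by xChIP-seq and xxChIP-seq in HL-60/S4 cells, in triplicate, with Input samples that are not used here. Per the study's methods, paired reads were placed on hg19 by the authors using Bowtie2, reads without a unique position were dropped, enriched regions were found by MUSIC with its defaults, and those of the triplicates were merged. The deposited values are other than a measurement: each of the 4 lists gives chromosome, start and end of merged peaks, without score, depth or replicate. Merging can lengthen peaks, and how many replicates support a base is unknown, as is the depth of each sample.

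Base-wise intervals were intersected and subtracted base by base with numpy 2.4.6 in Python 3.11.15, and words were counted with numba 0.67.0. The interval routines were tested on simulated intervals against base-wise masks. Genes came from GENCODE release 44 lifted to GRCh37, and promoters were the outermost gene start ± 1000 bp. Overlaps were counted from 1 bp. Intervals are Wilson 95%. A centromere gap is the longest internal run of unknown bases of a chromosome (the run at its start where there is no other).

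The members, gene lists and comparisons were chosen with earlier results of these data known. Named were the 10 longest segments, the 5 windows of 1 Mb with most segment bases, the 10 genes of 100 kb or more and the 10 promoters with the largest share in segments, and up to 4 genes for each of 14 lists, in order of covered share. The 12-letter words, canonical starts and peak ends were added after values were seen. Alternatives covered the length limit, peak lengths, the removed peaks and the promoter definition. A list, and some sequences, are not reported here. Nothing was tested, because no replicate values were in the lists.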

Additional observations from a re-analysis of the deposited data

How the results depend on the processing

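No paired analysis was possible because each list merges its 3 replicates, and leaving out a replicate could not be done for the same reason. Of 49 alternative values, 23 stayed within counting error or within 1.5 times the reported count, and 26 moved. A reversal was defined only for the promoter ratio, the word ratio and the GC excess over H1.5 in both, and none of these reversed. Counts, the share free of H1.5 and GC content itself have no direction to reverse. Leaving out peaks under 1000 bp changed no value, but the xChIP and xxChIP H1.2 lists held only 1 and 5 such peaks. Because the segments hold many bases, counting error is narrow, and small moves pass it.

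The share of the H1.2 overlap free of H1.5 went from 38.4% to 32.1% with H1.5 peaks widened by 500 bp, to 39.8% without H1.2 peaks of 20 kb or more and to 39.9% without segments within 2 Mb of a centromere gap. Overlapped promoters went from 304 to 196 without the long peaks, 119 with promoters of 500 bp on either side, 999 with 2500 bp and 120 with at least 500 bp shared. The promoter ratio of 0.263 became 0.270 with a limit of 250 bp, 0.232 without the long peaks, 0.191 at 500 bp, 0.605 at 2500 bp, 0.701 with all annotated genes, 0.222 with canonical starts and 0.260 away from centromere gaps. GC content of 42.8% became 42.9% with a limit of 250 bp, 43.1% with widened H1.5 peaks, 42.7% without long peaks and 42.9% away from centromere gaps, and its excess over H1.5 in both, 3.86 points, became 3.97, 3.93 and 3.58 with a limit of 1000 bp, widened peaks and no long peaks. The word ratio of 2.71 became 2.75 with a limit of 250 bp, 2.83 with widened peaks, 2.54 without long peaks, 2.73 away from centromere gaps and 2.68 with 50 words. Canonical starts, the distance from centromere gaps and every alternative for the words were chosen after seeing the data. The cause of these moves was not tested.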
